A study of Homo sapiens with 8 samples.

Results

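TRAIL, the ligand encoded by TNFSF10, and the 5 receptors that bind it were followed in H460 cells, an established human line of non-small-cell lung carcinoma. The members are the probe sets whose platform annotation names TNFSF10, the death receptor genes TNFRSF10A and TNFRSF10B, or the decoy receptor genes TNFRSF10C, TNFRSF10D and TNFRSF11B, and no other gene. The 6 genes, of 19775 measured under 1 symbol, have 18 of the 54613 probe sets tested. Another 2 probe sets carry TNFRSF10C together with a second gene and are not counted as members. The study hybridised total RNA of 2 groups to 8 arrays, 4 of TRAIL-sensitive cells (H460S) and 4 of cells with acquired TRAIL resistance (H460R). By the design text the resistant cells had received TRAIL for 6 months below its toxic dose, with RNA taken once resistance was established. The sensitive cells are labelled as controls, although the text on daily TRAIL treatment stands on all 8 samples, and both groups were grown in RPMI medium with serum. The labels name neither a clone, nor separate cultures for the arrays of a group, nor the time between the last TRAIL dose and RNA extraction, nor a mock-treated culture of equal age. Resistance, long exposure to the ligand and time in culture therefore cannot be told apart, and p-values reflect only how far the arrays of a group scatter, possibly for technical reasons.

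TRAIL belongs to the tumour necrosis factor superfamily and is displayed on the cell surface or shed as a trimer. The death receptors TRAIL-R1 (TNFRSF10A) and TRAIL-R2 (TNFRSF10B, also DR5) carry an intracellular death domain, through which they recruit the adaptor FADD and the caspases 8 and 10. The decoys bind the ligand without passing on that signal: TNFRSF10C is tethered to the membrane by a lipid anchor and has no intracellular domain, TNFRSF10D has a truncated death domain, and TNFRSF11B, or osteoprotegerin, is a secreted protein that also binds the bone-regulating ligand RANKL. All levels below are log2(signal + 1) of a probe set on one array. Every change is the resistant mean less the sensitive mean of these levels, with limma's standard error (SE) and 4 arrays per group. For receptor classes and for pairs of probe sets the SE comes instead from the plain variances of the 2 groups. A probe set passed when its limma p, adjusted by Benjamini-Hochberg over all 54613 probe sets, was below 0.05. Levels of different probe sets depend on their probes and are not compared with each other. They are set only against the median probe set of these arrays, 5.01, below which signals of this kind are noisy.

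Of the 6 promoters, 1 was matched in the RefSeq promoter table (GRCh38.p14), that of TNFSF10 on chromosome 3. It is shown as the only one matched. Some regulators listed below are known to act on interferon or forkhead sites, and a link of these sites to the ligand's level was not tested. The stretch covers the 250 bases before the annotated start on the minus strand, chr3:172523431-172523680, written 5′ to 3′ with motif matches in capitals.
TNFSF10: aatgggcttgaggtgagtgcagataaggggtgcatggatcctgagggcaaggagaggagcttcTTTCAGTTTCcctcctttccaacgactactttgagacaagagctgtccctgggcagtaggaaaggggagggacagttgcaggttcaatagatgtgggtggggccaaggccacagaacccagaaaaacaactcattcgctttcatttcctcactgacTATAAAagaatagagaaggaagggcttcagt
The first capitals, 187 to 178 bases before the start, match on the other strand the core of an interferon-stimulated response element, searched on both strands. This core is found in 3.02% of the 35114 promoter windows of that length. The second capitals, 31 to 26 bases before the start, are a TATA box (TATAAA, in 10.7% of windows on either strand). The gamma-activated sequence TTCNNNGAA (6.57% of windows), the forkhead motif GTAAACA (2.98%) and the GC box GGGCGG (42.6%), searched on both strands, are not among the letters of this window. A match is a description of letters, and nothing in these data measures binding.

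In resistant cells the transcript of the soluble decoy osteoprotegerin was 1.89 and 1.98 times as high by its probe sets, the most stable difference among the members. One probe set each of the membrane decoy TNFRSF10D and the death receptor TNFRSF10A was higher, by 1.51-fold and 1.36-fold, and one of the death receptor TNFRSF10B was lower, to 0.779 of the sensitive level. No probe set of the ligand or of the decoy TNFRSF10C passed. Of the 18 member probe sets, 4 rose, 1 fell and 13 did not pass. Among all probe sets 19.5% passed, 9.13% higher and 10.4% lower, so 5 of 18 is not far from the background. The median change of the members was 0.0049, and that of all probe sets -0.04. The arrays of the groups did not overlap for 7 members, against 26.4% of all probe sets. By mean level over the 8 arrays, 10 members lay at or above the median probe set and 8 below it. All 5 calls were among the 10. Across all probe sets, 34.2% of those at or above the median level passed and 4.76% of those below it.

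**Figure D1:**
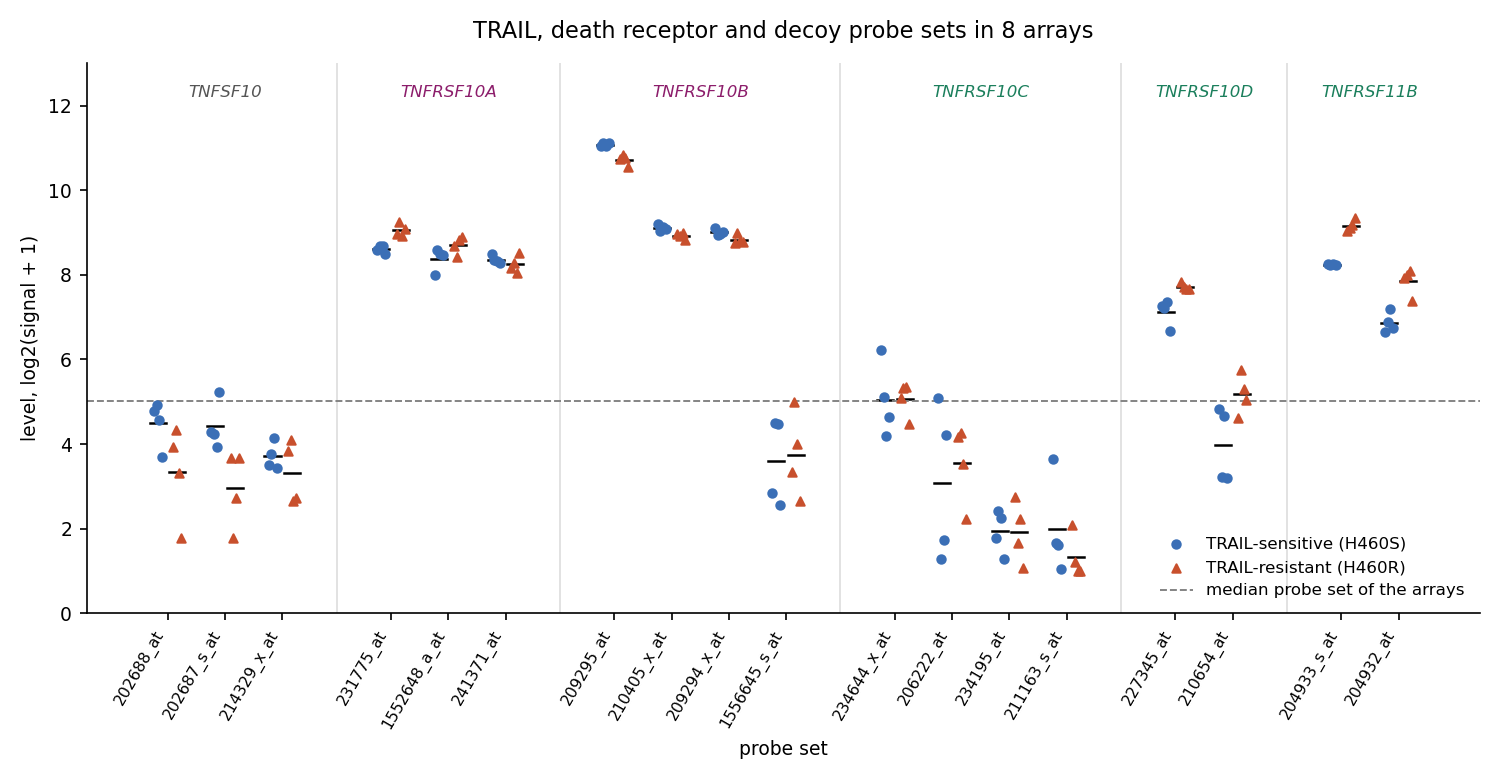
Level of each member probe set, as log2(signal + 1), on 4 sensitive (circles) and 4 resistant (triangles) arrays, with black bars for group means and a dashed line at the median probe set, 5.01. The groups are fully apart for both TNFRSF11B probe sets, while all 3 TNFSF10 probe sets and most TNFRSF10C probe sets have means below the dashed line.

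The ligand gene TNFSF10 was dim in both groups. Its probe set 202688_at read 4.79, 4.93, 4.58 and 3.70 in sensitive arrays 1 to 4 and 3.92, 4.34, 3.33 and 1.77 in resistant arrays 1 to 4. Resistant array 4 was the lowest, and the groups overlapped. The change was -1.16 ± 0.57 (SE, n = 4 per group) and did not pass (limma adjusted p = 0.221, 95% interval -2.50 to 0.18). Without resistant array 4 it was -0.64, and with a pseudocount of 16 in place of 1 it was -0.53. The second probe set, 202687_s_at, read 4.30, 4.24, 3.92 and 5.23 in sensitive and 3.66, 1.79, 2.72 and 3.68 in resistant arrays. Here every resistant array lay below every sensitive one, yet the change of -1.46 ± 0.49 did not pass either (limma adjusted p = 0.0803), and with the pseudocount of 16 it was -0.65. The third, 214329_x_at, ranged from 3.44 to 4.13 in sensitive and from 2.65 to 4.09 in resistant arrays, a change of -0.39 ± 0.37 (limma adjusted p = 0.550). All 3 estimates were negative, and the level of each lay under that of the median probe set, where values of similar probe sets scatter by a median SD of 0.82 to 0.94 within a group. When the 3 were averaged, the gene lay at 4.21 ± 0.08 (SD, n = 4) in sensitive and 3.21 ± 0.49 in resistant arrays without overlap. In a fit of such gene means this change of -1.0 ± 0.23 passed (limma adjusted p = 0.0186), so the call for the ligand depends on how its probe sets are combined.

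The brightest probe sets of both death receptor genes were well above the median probe set and moved in opposite directions. TNFRSF10A, TRAIL-R1, has 3 probe sets. Its brightest, 231775_at, read 8.59, 8.67, 8.68 and 8.49 in sensitive and 8.96, 9.25, 8.92 and 9.08 in resistant arrays. All resistant arrays lay above all sensitive ones, and the probe set rose by 0.44 ± 0.11 (limma adjusted p = 0.0284). The probe set 1552648_a_at, listed under a RefSeq transcript, read 8.01, 8.59, 8.49 and 8.46 against 8.67, 8.43, 8.82 and 8.89. Sensitive array 1 was the lowest of the 8, resistant array 2 lay within the sensitive range, and the change of 0.32 ± 0.17 did not pass (limma adjusted p = 0.25). The third, 241371_at, read 8.49, 8.35, 8.33 and 8.27 against 8.16, 8.27, 8.05 and 8.52, with overlapping groups and a change of -0.11 ± 0.13 (limma adjusted p = 0.626). Its 95% interval, -0.41 to 0.19, just reaches the lower bound of the interval of 231775_at, 0.19 to 0.70. The mean of the 3 probe sets changed by 0.22 ± 0.09 and did not pass (limma adjusted p = 0.130).

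TNFRSF10B, TRAIL-R2, has 4 probe sets. The brightest, 209295_at, read 11.04, 11.10, 11.05 and 11.12 in sensitive and 10.74, 10.82, 10.76 and 10.55 in resistant arrays. The sensitive arrays lay close together, all resistant arrays lay below them, and the probe set fell by 0.36 ± 0.09 (limma adjusted p = 0.0360). The probe set 210405_x_at read 9.19, 9.03, 9.13 and 9.07 against 8.96, 8.91, 9.0 and 8.81, again without overlap, and changed by -0.18 ± 0.09 (limma adjusted p = 0.222). The probe set 209294_x_at read 9.10, 8.95, 8.95 and 9.0 against 8.76, 8.98, 8.79 and 8.78, where resistant array 2 alone lay within the sensitive range, and changed by -0.17 ± 0.10 (limma adjusted p = 0.276). The suffix of these 2 marks probes that may cross-hybridise. It also stands on 214329_x_at of TNFSF10, on 234644_x_at of TNFRSF10C, and on CFLAR probe sets that passed in each direction, described below. The fourth, 1556645_s_at, was dim, from 2.56 to 4.50 in sensitive and from 2.65 to 5.0 in resistant arrays, with a change of 0.16 ± 0.66. With it in the mean of 4 probe sets the gene changed by -0.14 ± 0.19 (limma adjusted p = 0.663).

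The calls for both death receptors lay close to the threshold. Leaving out any 1 of the 8 arrays ended that of TNFRSF10B, with changes of -0.39 to -0.30 and adjusted p-values up to 0.0860 in limma. For TNFRSF10A 7 of the 8 omissions did, all but that of resistant array 3, with changes of 0.38 to 0.49 and limma adjusted p-values up to 0.0744. Centring the arrays on their medians also ended the call of TNFRSF10B (-0.29, limma adjusted p = 0.139).

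**Figure D2:**
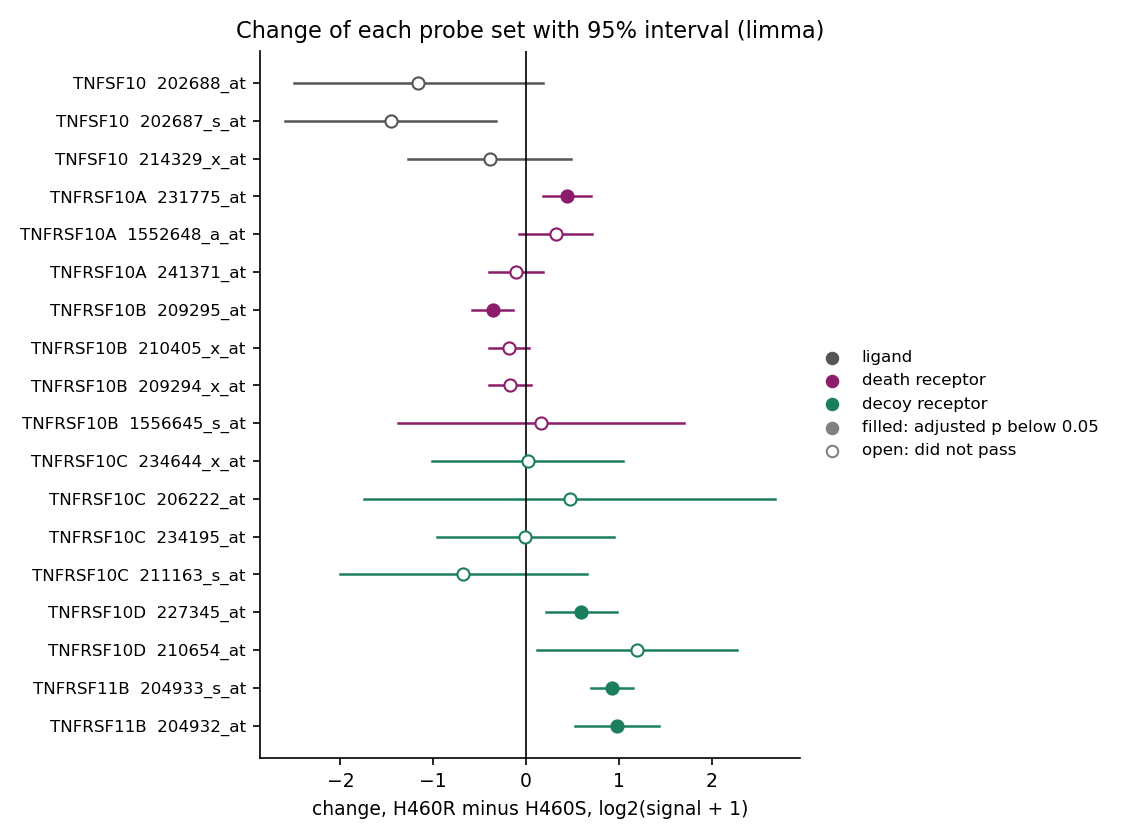
Change of each member probe set, resistant less sensitive, in log2(signal + 1), with its 95% interval from limma, coloured by class and filled where the adjusted p was below 0.05. The 2 TNFRSF11B intervals lie furthest above 0 among the filled points, and the widest intervals belong to the dim probe sets of TNFSF10, TNFRSF10C and TNFRSF10B.

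Among the decoys, osteoprotegerin (TNFRSF11B) gave the clearest difference. The probe set 204933_s_at read 8.25, 8.22, 8.27 and 8.24 in sensitive arrays and 9.04, 9.11, 9.17 and 9.34 in resistant arrays. The sensitive arrays lay close together and all resistant arrays above them. It rose by 0.92 ± 0.10, a factor of 1.89 (limma adjusted p = 0.000841). The second, 204932_at, read 6.66, 6.89, 7.18 and 6.73 against 7.92, 7.99, 8.09 and 7.39. Resistant array 4 was its lowest resistant value but still above all sensitive arrays, and it rose by 0.98 ± 0.19, a factor of 1.98 (limma adjusted p = 0.0113). The 2 probe sets are listed under different accessions, and their changes differed by 0.06 ± 0.24. Both passed under every alternative run, with changes of 0.86 to 1.14 and limma adjusted p-values of at most 0.0370. Of all probe sets, 83.8% had a smaller absolute change than 204933_s_at.

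TNFRSF10D, the decoy with the truncated death domain, has 2 probe sets. The brighter, 227345_at, read 7.25, 7.22, 7.36 and 6.67 in sensitive and 7.82, 7.71, 7.68 and 7.67 in resistant arrays. Sensitive array 4 stood lowest, the groups did not overlap, and the probe set rose by 0.59 ± 0.16 (limma adjusted p = 0.0414). The dimmer, 210654_at, read 4.82, 3.22, 4.67 and 3.20 against 4.62, 5.75, 5.29 and 5.03. Resistant array 1 fell within the sensitive range, and the larger estimate of 1.19 ± 0.46 did not pass (limma adjusted p = 0.123). The call of 227345_at was lost in 6 of the 8 omissions of an array, all but those of sensitive arrays 3 and 4, with changes of 0.44 to 0.67 and limma adjusted p-values up to 0.105.

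TNFRSF10C, the lipid-anchored decoy, gave no measurable difference. Its brightest probe set, 234644_x_at, lay at 6.21, 5.11, 4.19 and 4.64 in sensitive and 5.10, 5.32, 5.34 and 4.47 in resistant arrays, on the level of the median probe set. Its change was 0.02 ± 0.44 (limma adjusted p = 0.986), with a 95% interval of -1.01 to 1.05 that spans a halving as well as a doubling. The probe set 206222_at, listed under a RefSeq transcript, ranged from 1.28 to 5.10 in sensitive and from 2.23 to 4.26 in resistant arrays, with a change of 0.47 ± 0.95. The remaining 2 were near the bottom of the scale. The probe set 234195_at ranged from 1.30 to 2.42 and from 1.07 to 2.75, and 211163_s_at from 1.06 to 3.64 and from 0.99 to 2.08. Sensitive array 1 was the highest of all 8 arrays on 3 of the 4 probe sets, 234644_x_at, 206222_at and 211163_s_at. Without that array the change of 234644_x_at was 0.41, with a limma adjusted p of 0.437, the lowest among its alternatives that leave out 1 array. The 2 probe sets shared with a second gene did not pass either, with changes of -0.13 ± 0.62 and -0.65 ± 0.68 (limma adjusted p = 0.922 and 0.588).

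Whether probe sets of one gene disagreed was tested directly. For each of 12 pairs, formed by the brightest probe set of a gene and each of its others, the difference between both within every array was compared between the groups with a two-sided exact permutation test over the 70 assignments of arrays, whose smallest possible p is 0.0286. That smallest value was reached by 1 pair, 241371_at against 231775_at of TNFRSF10A, whose changes differed by -0.55 ± 0.10 (exact permutation p = 0.0286, adjusted over the 12 pairs 0.343). The pairs of 209295_at with 210405_x_at and 209294_x_at of TNFRSF10B differed by 0.18 ± 0.07 and 0.19 ± 0.07 (exact permutation p = 0.0571 and 0.0857, both 0.343 adjusted). No pair passed after adjustment, and with this many pairs a single pair at the smallest p cannot.

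Death receptors and decoys were compared as classes, as a description without a test, since the members were chosen with results known. Each gene was the mean of its probe sets and each class the mean of its genes. The death receptors averaged 8.20, 8.47, 8.45 and 8.17 in sensitive and 8.27, 8.54, 8.37 and 8.26 in resistant arrays, overlapping groups whose means differed by 0.04 ± 0.10. The decoys averaged 5.89, 5.13, 5.40 and 5.08 in sensitive and 6.08, 6.13, 6.05 and 5.64 in resistant arrays. Their difference was 0.60 ± 0.22, and sensitive array 1 lay above resistant array 4. The difference between the classes within an array, whose absolute size has no meaning across probes, was 2.31, 3.33, 3.06 and 3.10 in sensitive and 2.20, 2.41, 2.32 and 2.63 in resistant arrays, a shift of -0.56 ± 0.24 towards the decoys. Sensitive array 1 lay within the resistant range, and without it the shift was -0.77. This array had the highest decoy mean of the sensitive arrays. With only the brightest probe set of each gene the shift was -0.47 ± 0.17. The estimates of the genes of a class differed, and the differences between genes were not tested. By the mean of its probe sets, TNFRSF11B changed by 0.95 ± 0.10, TNFRSF10D by 0.89 ± 0.28 and TNFRSF10C by -0.05 ± 0.44 (limma SE). The 95% interval of TNFRSF10C, -1.09 to 0.99, holds the estimates of TNFRSF11B and TNFRSF10D. Among the death receptors TNFRSF10A changed by 0.22 ± 0.09 and TNFRSF10B by -0.14 ± 0.19, with overlapping 95% intervals. By probe sets, 3 of 8 decoy probe sets rose and 0 fell in limma, 2 of the 3 being those of TNFRSF11B. Of 7 death receptor probe sets 1 rose and 1 fell. Among all probe sets 19.5% passed in either direction. An unadjusted limma p below 0.05 was reached by 4 decoy and 2 death receptor probe sets, and by 17044 of all 54613. These counts are small, and their difference was not tested. The median change was 0.53 for decoys and -0.11 for death receptors, beside -0.04 for all probe sets.

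**Figure D3:**
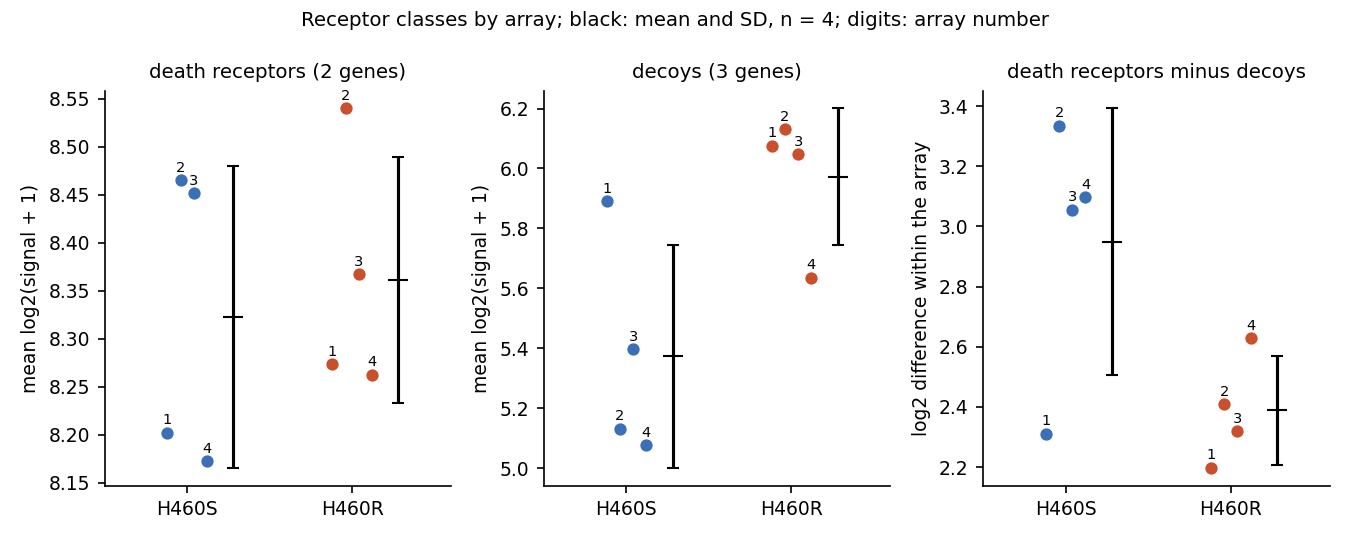
Mean log2 level of the 2 death receptor genes, of the 3 decoy genes, and their difference within each array, with the array number above each point and the group mean with SD (n = 4) in black; the vertical axes do not start at 0. The decoy panel shows 3 resistant arrays above all sensitive ones, and in the difference panel sensitive array 1 sits among the resistant arrays.

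The genes whose pattern over the 8 arrays was most like each member were listed by Pearson correlation, among about 11640 genes at or above the median probe set. With 2 groups of arrays, any gene with a similar group difference scores high, so the values are a description. For 204933_s_at of TNFRSF11B the closest were PPIF (r = 0.997), PRPF31 (0.997) and NDUFA2 (0.997), and 1023 genes exceeded 0.95. For 209295_at of TNFRSF10B they were TMEM135 (0.996), ARRDC3 (0.993) and CAV2 (0.991), with 299 genes above 0.95. For 231775_at of TNFRSF10A they were CDK1 (0.979), PRTFDC1 (0.976) and SPATA13 (0.976), and for 227345_at of TNFRSF10D ZC3H13 (0.987), BMP8B (0.984) and SKA3 (0.977), with 32 and 19 genes above 0.95. The noisier TNFSF10 probe set 202688_at was closest to DSTNP2 (0.968), ZSCAN12 (0.967) and WWP2 (0.964). For 234644_x_at of TNFRSF10C, BOLA2 (0.984), HSD17B14 (0.944) and ZFAND2A-DT (0.936) led, and 1 gene exceeded 0.95.

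Genes around the receptors were taken from fixed lists, each gene as its brightest probe set, among 19775 genes of which 24.9% passed, 12.1% higher and 12.8% lower, with a median change of -0.03. By that probe set, all 4 genes of the receptor-bound signalling complex passed. The adaptor FADD rose by 0.72 ± 0.13, while the initiator caspases CASP8 and CASP10 fell by 0.62 ± 0.12 and 0.50 ± 0.13 and the caspase-8 inhibitor CFLAR by 0.48 ± 0.08 (limma adjusted p = 0.00720, 0.0109, 0.0362 and 0.00610). Probe sets of CFLAR passed in both directions, which those of no receptor gene did: the 2 brightest fell, but 5 dimmer ones rose, among them 211317_s_at by 0.83 ± 0.12 (limma adjusted p = 0.00331), named after its values were seen. The call of CASP10 was lost in 7 of 8 omissions of an array, all but that of resistant array 4, with limma adjusted p-values up to 0.0918. In a fit with the replicate number as a block, all 4 genes lost their calls. The limma adjusted p-values were then 0.0655 for FADD, 0.0613 for CASP8, 0.116 for CASP10 and 0.0673 for CFLAR.

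In the wider superfamily most receptors and ligands did not pass. Of 7 genes listed as other death-domain receptors, TNFRSF21 rose by 0.66 ± 0.15 and EDA2R, a receptor of ectodysplasin that itself lacks a death domain, fell by 1.28 ± 0.20 (limma adjusted p = 0.0229 and 0.00391), and 5 did not pass. TNFRSF21 lost its call in 4 of 8 omissions of an array, sensitive array 2 and resistant arrays 1, 2 and 3. Of 16 measured receptors without a death domain, 1 rose and 2 fell: TNFRSF11A, the receptor RANK whose ligand osteoprotegerin also captures, rose by 0.71 ± 0.10, TNFRSF1B, the second TNF receptor, fell by 1.99 ± 0.37 to a low level of 3.11, and TNFRSF19 fell by 0.71 ± 0.11 (limma adjusted p = 0.00253, 0.00866 and 0.00408). Of 15 measured ligands, only CD70, the ligand of CD27, passed, falling by 1.52 ± 0.09 from 10.55 to 9.03 (limma adjusted p = 0.000101). TNFSF11, the RANK ligand, read 2.57 in sensitive and 3.05 in resistant arrays, below the median probe set.

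Genes that modify or control the receptors were next. Of 8 genes of receptor glycosylation and surface transport, GALNT14, a transferase that starts O-linked sugars on death receptors, fell by 0.85 ± 0.10 (limma adjusted p = 0.00123), and MARCHF8, a membrane ubiquitin ligase reported to act on TNFRSF10A, rose by 0.40 ± 0.09 (limma adjusted p = 0.0231). The other 6 did not pass, with a median of -0.03 over the list, and MARCHF8 lost its call without sensitive array 3 or 4 or resistant array 1 or 2, with limma adjusted p-values up to 0.0685. Of 7 measured transcription factors reported to act on TRAIL or its receptors, 3 fell and 0 rose in limma. DDIT3, or CHOP, known to activate TNFRSF10B, fell by 1.78 ± 0.10, FOXO3, a forkhead factor known to activate TNFSF10, by 0.91 ± 0.09, and RELA, an NF-kB subunit, by 0.67 ± 0.11 (limma adjusted p = 6.89e-05, 0.000706 and 0.00547). The interferon-regulated factor IRF1 read 7.56 in sensitive and 7.70 in resistant arrays, and the forkhead factor FOXO1 6.22 and 6.85, and neither passed (limma adjusted p = 0.469 and 0.137). Of 9 measured genes of the mitochondrial arm, CASP9 fell by 0.93 ± 0.09 and BID, the link from caspase-8 to mitochondria, rose by 0.38 ± 0.11 (limma adjusted p = 0.000533 and 0.0491). BID lost its call in 7 of 8 omissions of an array, all but that of resistant array 2.

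**Figure D4:**
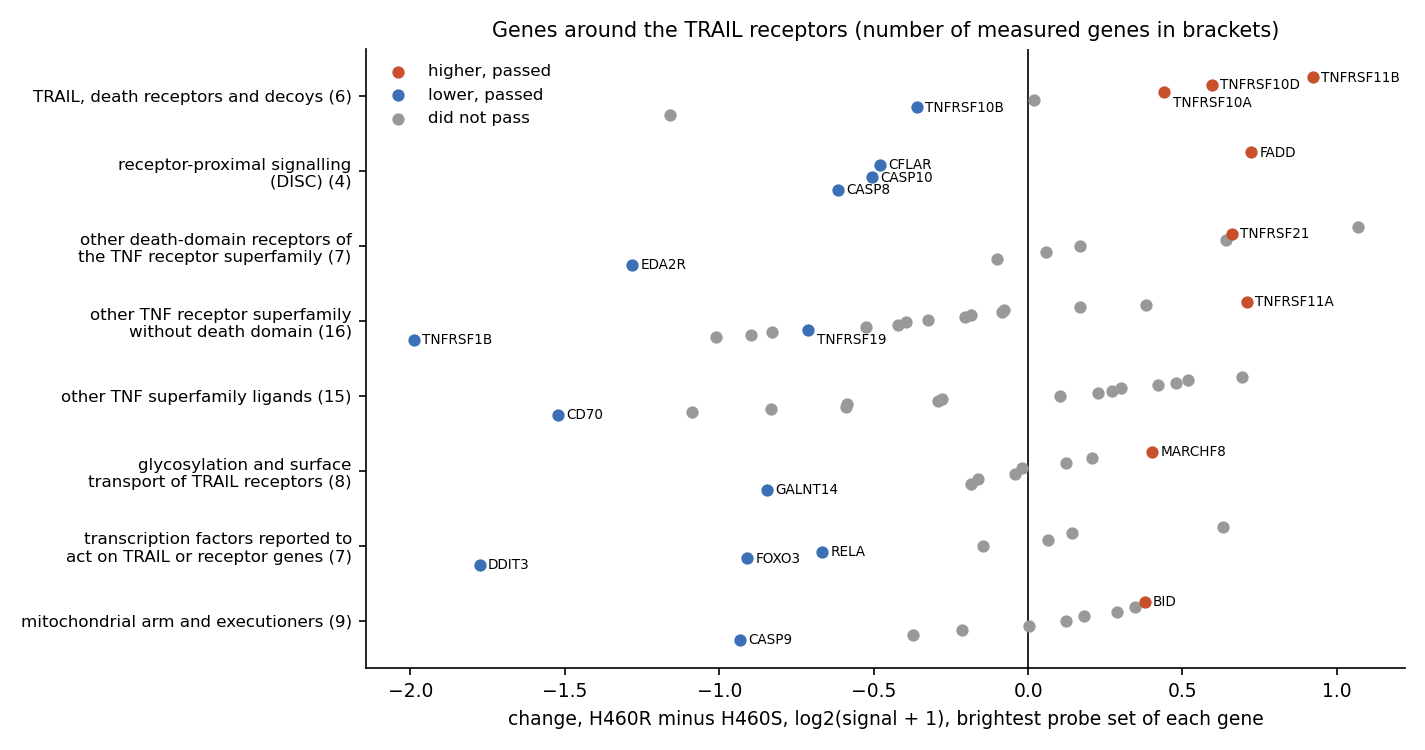
Change of each measured gene, resistant less sensitive in log2(signal + 1) and by its brightest probe set, in the TRAIL family and 7 fixed lists, with named points for genes that passed. FADD stands to the right of 0 and CASP8, CASP10 and CFLAR to the left, and the lowest named points are TNFRSF1B, DDIT3 and CD70.

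The 4 TNFRSF10 genes lie side by side on chromosome 8, in the order TNFRSF10B, TNFRSF10C, TNFRSF10D and TNFRSF10A, with the antisense gene TNFRSF10B-AS1 among them. By their brightest probe sets TNFRSF10B at one end fell while TNFRSF10D and TNFRSF10A at the other rose, calls that 8, 6 and 7 of the 8 omissions of an array ended. The means of all probe sets of these genes did not pass (limma adjusted p = 0.663, 0.0544 and 0.130), and the difference between the genes was not tested. Of 21 measured neighbours, the 10 genes on each side and TNFRSF10B-AS1, 1 rose and 4 fell, with a median change of 0.01. This is near the 24.9% of all genes that passed in either direction. Among those that passed, the largest changes were those of C8orf58 (-0.86 ± 0.12), SLC25A37, a mitochondrial iron carrier (-0.86 ± 0.08), LOXL2, a lysyl oxidase (-0.77 ± 0.09), and ENTPD4 (-0.50 ± 0.14), the last with a call that 7 of 8 omissions of an array ended, all but that of sensitive array 1. The gene TNFRSF10A-DT, which starts next to TNFRSF10A, read lower in all resistant arrays than in any sensitive one, with a change of -0.63 ± 0.19 that did not pass (limma adjusted p = 0.0602). TNFRSF10B-AS1 changed by 1.07 ± 0.73 from a dim 3.26.

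TNFRSF11B lies elsewhere on chromosome 8. Of its 20 measured neighbours 10 passed, 5 higher and 5 lower, with a median change of 0.11. Of all genes 24.9% passed in either direction, and the difference from that share was not tested. Among those that passed, the largest changes were those of COL14A1, a collagen (-1.98 ± 0.52), ENPP2, the enzyme autotaxin (1.48 ± 0.30), DSCC1, a cohesion factor (1.41 ± 0.12), and COLEC10, a collectin (-1.40 ± 0.38), so genes next to the decoy moved both ways. The calls of COL14A1 and COLEC10 were lost in 5 and 7 omissions of an array, COL14A1 keeping its call without resistant array 1, 2 or 4 and COLEC10 without resistant array 2. Around TNFSF10, 2 of 20 neighbours rose and 3 fell, near the 24.9% of all genes, with a median of 0.11. Those that passed were led by EIF5A2 (1.0 ± 0.16), PLD1, a phospholipase (-0.68 ± 0.11), TNIK, a kinase (0.61 ± 0.14), and FNDC3B (-0.53 ± 0.08). TNIK did not pass without sensitive array 4 (limma adjusted p = 0.0503).

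**Figure D5:**
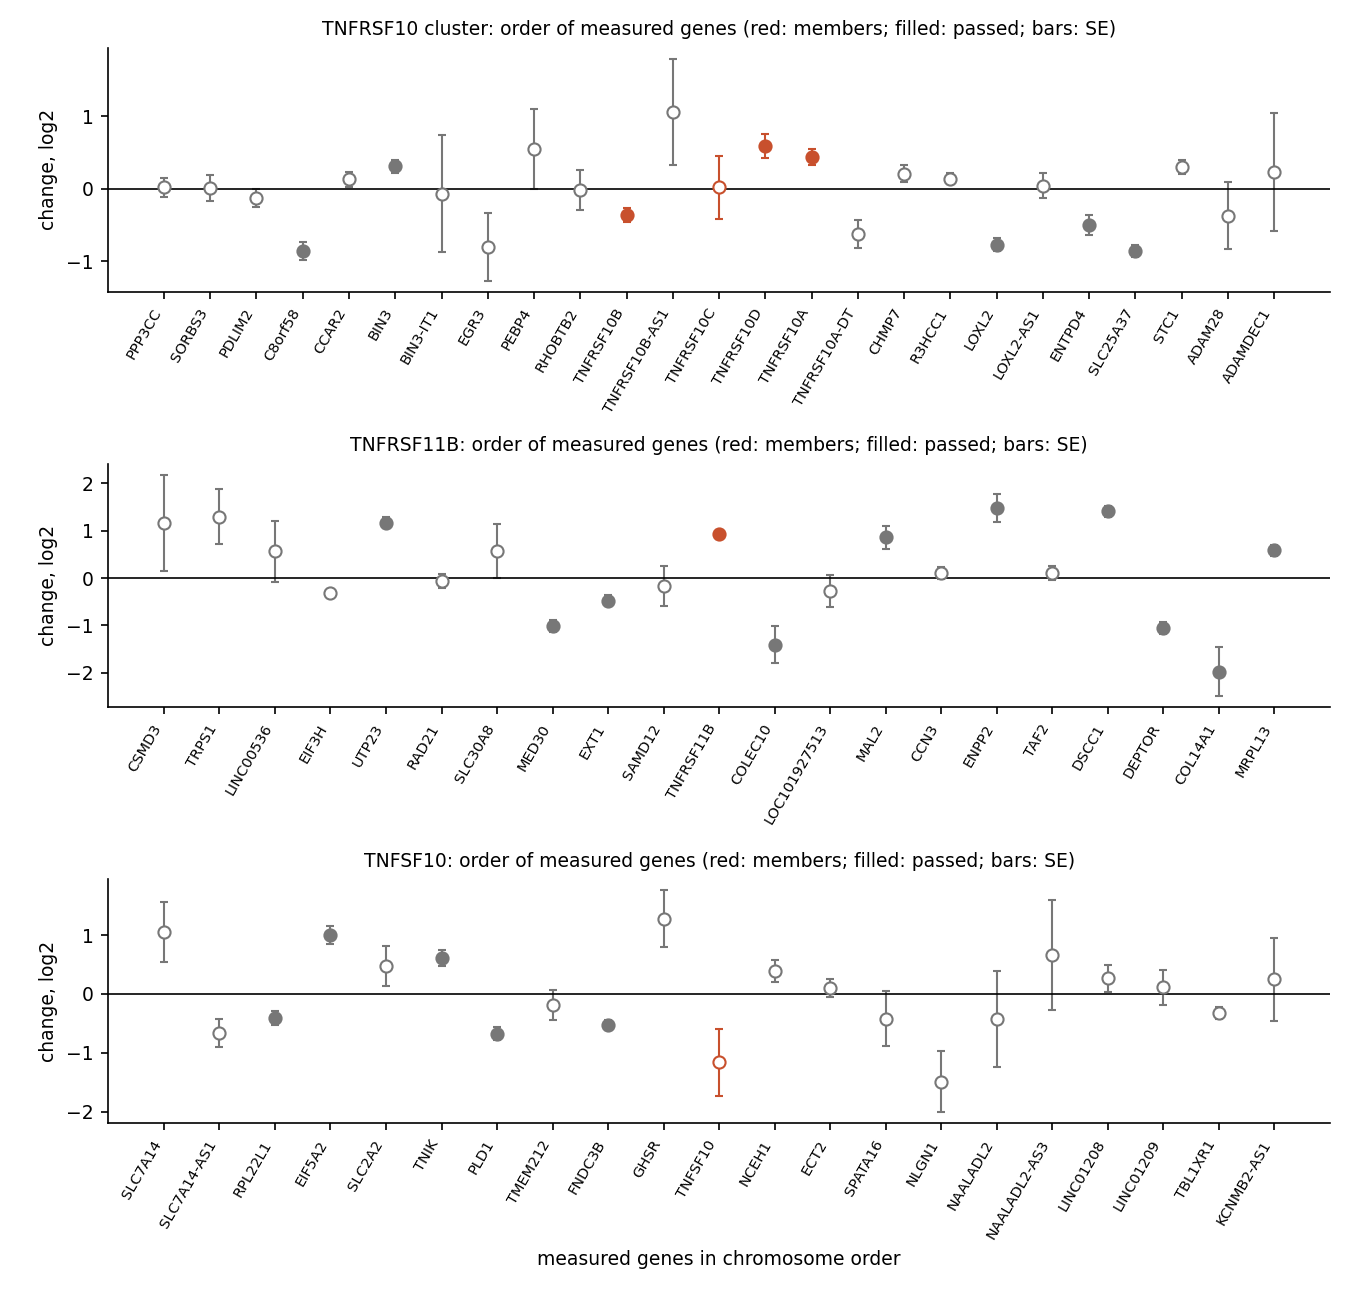
Change of the members (red) and of their measured neighbours (grey) in chromosome order, resistant less sensitive in log2(signal + 1), with SE bars and filled points for genes that passed. In the top panel TNFRSF10B lies below 0 and TNFRSF10D and TNFRSF10A above it, and the middle panel shows passing genes on both sides of 0 around TNFRSF11B.

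As a check of the arrays, median signals lay between 32.6 and 37.4, the mean correlation of an array with its own group was 0.937 to 0.952, and that with the other group 0.921 to 0.929. Sensitive array 1 and resistant array 4 had the lowest weights in their groups, 0.649 and 0.571. With both left out the 2 TNFRSF11B probe sets passed (0.86 and 1.07), and those of TNFRSF10A, TNFRSF10B and TNFRSF10D did not. The epithelial keratins KRT8 (11.41 and 11.36) and KRT18 (13.18 and 13.12) did not pass, and KRT19 fell from 12.52 to 11.28 (limma adjusted p = 0.000389), while EPCAM (4.40 and 3.83) and CDH1 (2.43 and 2.29), further epithelial markers, lay below the median probe set. The 5 epithelial marker signals summed to 16940 to 19730 in sensitive and 13310 to 16020 in resistant arrays, without overlap. Leukocyte and endothelial marker signals summed to 106.6 to 141.2 and 80.2 to 87.0 in sensitive and 127.2 to 153 and 50.7 to 91.5 in resistant arrays. Of the 4 leukocyte markers CD14 (6.47 and 6.67) and of the 3 endothelial markers PECAM1 (6.14 and 5.73) lay above the median probe set and the others, PTPRC and CDH5 among them, below it. The 4 fibroblast markers summed to 300.5 to 406.6 in sensitive and 193 to 268.2 in resistant arrays, LUM and PDGFRB falling. The part of the epithelial and fibroblast markers in the results was not tested.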

How the data were processed

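Per the labels, total RNA was labelled with biotin and hybridised to 8 arrays. The table holds 54675 probe sets, 62 of them controls that were left out. The intensity values the authors deposited are on a linear scale. The submitters' processing notes name RMA without a version. RMA ends in log2 values, which these are not, and their mean after trimming 2% at each end is 200 on every array, so the step that made them is not settled. A change in total RNA per cell cannot be seen in such values.

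Here log2(signal + 1) was taken with no further normalization, and a fold change is on that scale, which understates changes of dim genes. Groups were compared with limma 3.58.1 (lmFit, eBayes) in R 4.3.3, and figures were drawn with matplotlib 3.10.9. Of 42898 annotated probe sets 1801 name several genes, and 11777 are not annotated. Symbols were updated through RefSeq (GRCh38.p14). The fit was tested on simulated data. No 2 arrays held identical values. Arrays have no read depth, and 4 per group limit the precision. Replicate numbers were not used to pair the arrays in the main fit, and whether they mark pairs is not known.

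The members and gene lists were chosen with earlier results of these data known. The naming rule took all member probe sets and signalling-complex genes, up to 4 passing genes with the largest changes from every other list and stretch of neighbours, and the 3 genes most like each member. IRF1, FOXO1, TNFSF11, the antisense and divergent neighbours and the further CFLAR, CASP8 and CASP10 probe sets were named besides. Pair tests and the removal of 2 arrays together were added after values were seen. Listed genes not measured under 1 symbol were not used here.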

Additional observations from a re-analysis of the deposited data

Results flagged for a closer look

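In 36 groups of 4 arrays, formed by the 18 member probe sets in each condition, 1 value stood apart from its group. On the TNFRSF10B probe set 209294_x_at, resistant array 2 read 8.98 and the nearest resistant array 8.79, a gap of 0.837 of the group's whole range. Such a gap is flagged by chance in about 1 of 20 groups.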

How the results depend on the processing

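Both TNFRSF11B calls held under every alternative, while those of TNFRSF10A, TNFRSF10B and TNFRSF10D lay near the threshold, and the cause was not tested. Median centring left 0 member probe sets lower (4 higher). With a replicate block, 2 member probe sets were higher and 0 lower, and over all probe sets 2190 were higher and 2872 lower in place of 4984 and 5653. Arrays of the same number correlated in their deviations by -0.09 to 0.10, and those of different numbers by -0.10 to 0.15. With so few arrays this does not settle whether those of one number share a culture or a day. With sensitive array 1 and resistant array 4 both left out, an alternative chosen after the data were seen, 2 were higher and 0 lower. Leaving out each array in turn gave 2 to 3 member probe sets higher and 0 lower. The shift of death receptors against decoys lay between -0.85 and -0.43 over all alternatives run for it. Of 292 comparisons of a member probe set with an alternative, 260 stayed on the same side of the threshold with no called value changing sign. Of 224 list counts under alternatives, 187 were within 1.5 times the main count. Among 37 listed or neighbouring genes that passed, 19 passed under all settings and 0 changed sign. With the block 18 of the 37 failed, 6 of them under no other setting. The share of calls that were higher moved with the scaling: median centring gave 5525 higher and 4474 lower probe sets, quantile normalization 5446 and 5262.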
